A study of Mus musculus with 64 samples.

Results

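Interferon-stimulated genes are genes that cells switch on when interferons bind their receptors. A list of 43 such genes was described here across 4 mouse tissues, and each of the 43 symbols was found in the liver, heart, white fat and lung tables, which together hold 25107 gene symbols. The members were found by symbol from that list, and no measured value entered that step. The list itself was chosen with earlier results of these data known. They fall into 10 groups by role: 3 transcription factors of the response, 4 nucleic acid sensors, 3 IFIT proteins, 5 OAS proteins, 2 genes of the ISG15 system, 4 immunity-related GTPases, 4 guanylate-binding proteins, 4 members of the IFI200 family, 3 genes of class I antigen processing and 11 other interferon-induced genes.

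Type I interferons act through a receptor pair and the kinases Jak1 and Tyk2, which phosphorylate Stat2. Phosphorylated Stat2 works in a complex with Irf9 that binds the interferon-stimulated response element in the promoters of their target genes. Interferon gamma acts through gamma-activated sites and is a strong inducer of the immunity-related GTPases, the guanylate-binding proteins and the immunoproteasome. Tissues of uninfected mice keep a low, tonic level of these transcripts, and resident macrophages and other immune cells are among the cells that carry them.

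The study sequenced RNA of 64 libraries: 20 were from liver, 20 from heart, 12 from lung and 12 from white fat of the inguinal depot. Each tissue held 4 groups: sedentary vehicle, trained vehicle, sedentary knockout and trained knockout, with 5 libraries a group in liver and heart and 3 in white fat and lung. Training was 6 weeks of daily treadmill running, and the tissues were collected 48 hours after running had ended. The knockout is the loss of Bmal1, a transcription factor of the circadian clock, in skeletal muscle. All groups carry the genotype Cre+:iMSBmal1 fl/fl, so the vehicle groups also hold the Cre transgene and the floxed alleles. Any effect of the agent that brings about the knockout therefore cannot be told apart from the knockout itself. The promoter that drives Cre, the strain, the age and the time of day are not given in the sources used here.

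The response element is shown first because more than 1 in 2 of the members with a listed promoter hold its core. Of the 34 members with an entry in the RefSeq promoter table (GRCm38.p6, 250 bases before to 50 bases after each gene's start), 20 held its core, GAAANNGAAA or the reverse complement TTTCNNTTTC. That is 58.8% of the members, against 3.99% of 27025 genes with an entry. The gamma-activated site TTCNNNGAA, which reads the same on both strands, was found in 9 of the 34, or 26.5%, against 9.55% of all genes. A match is a description of the letters in this window, not evidence of binding. The core was held by all 4 guanylate-binding proteins (Gbp2, Gbp3, Gbp5 and Gbp7) and by 3 of 4 immunity-related GTPases (Igtp, Irgm1 and Irgm2). It was held by 0 of the 3 class I genes (Psmb8, Psmb9 and Tap1). Of the 8 members that passed a test in these data, Ddx58, Oas1a, Trim30a and Ifi203 held it, Ifi209, Ifi35 and Slfn2 did not, and Ifi204 has no entry.

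The stretches around the core are given 5′ to 3′ on the gene's strand in GRCm38.p6, with the core in capitals. The first 4 belong to members that passed a test, and the others to the ubiquitin-like modifier Isg15, the GTPases Igtp and Gbp2 and the antiviral gene Ifit1.
Ddx58, chr4:40239814-40239848 (minus strand): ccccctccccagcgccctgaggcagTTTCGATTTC
Oas1a, chr5:120907514-120907570 (minus strand): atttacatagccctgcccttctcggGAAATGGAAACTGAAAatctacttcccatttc
Trim30a, chr7:104465195-104465254 (minus strand): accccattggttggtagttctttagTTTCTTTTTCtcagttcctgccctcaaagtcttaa
Ifi203, chr1:173942493-173942552 (minus strand): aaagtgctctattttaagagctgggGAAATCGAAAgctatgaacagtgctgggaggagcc
Isg15, chr4:156200862-156200921 (minus strand): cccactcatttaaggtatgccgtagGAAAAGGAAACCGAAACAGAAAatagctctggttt
Igtp, chr11:58199497-58199556 (plus strand): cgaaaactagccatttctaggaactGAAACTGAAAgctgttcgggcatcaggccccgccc
Gbp2, chr3:142620579-142620638 (plus strand): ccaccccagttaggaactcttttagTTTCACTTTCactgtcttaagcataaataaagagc
Ifit1, chr19:34640760-34640819 (plus strand): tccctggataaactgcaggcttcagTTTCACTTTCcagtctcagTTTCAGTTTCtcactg
Isg15 and Oas1a held overlapping copies of the core, 3 and 2 matches in all, and Ifit1 held 2 separate ones. In Ddx58 the match began 2 bases past the annotated start, whereas in Igtp it began 34 bases before it, in Gbp2 59 bases and in Isg15 78 bases before it. A gene was counted as holding the core where any of its listed windows did, and Trim30a and Ifi203 each have a second window, not shown. In that of Trim30a the match also began 2 bases past the start, and that of Ifi203 held 0 matches. In Ifih1, also not shown, the match began 32 bases past the start.

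Depth was 12391200 to 20668800 estimated reads per library in liver, 14141600 to 20961900 in heart, 18966600 to 31169100 in white fat and 18668200 to 35690200 in lung. Each tissue carried the markers of its label, such as hepatocyte genes in liver and adipocyte genes in white fat. Libraries with transcripts of another tissue were 1 of liver (trained knockout replicate 2, skeletal muscle), 4 of heart (trained vehicle replicate 5, hepatocyte, and sedentary vehicle replicate 3, trained vehicle replicate 1 and trained knockout replicate 5, adipocyte) and 2 of white fat (sedentary knockout replicate 1 and trained knockout replicate 2, hepatocyte). The targeted gene, listed as Arntl, is removed in muscle, which was not among the tissues. In liver Arntl was lower in trained knockout than in trained vehicle mice, with a log2 fold change of -0.96 (SE 0.23, adjusted p = 0.034), in white fat and lung it passed no test, and in heart it was under the filter on low values. Within a tissue, 1 model gave 5 comparisons: trained against sedentary mice under vehicle and under knockout, knockout against vehicle mice when sedentary and when trained, and how far the 2 training effects differed, as knockout minus vehicle. Genes were called at a Benjamini-Hochberg adjusted p under 0.05 over all genes tested, by limma in liver and heart and by edgeR's quasi-likelihood test in white fat and lung. Levels in white fat and lung are in CPM, the counts scaled to library size. In liver and heart they are the authors' scaled values brought to the CPM scale with 1 factor for all libraries of a tissue. In bulk tissue, fewer cells of a type and less RNA per cell cannot be told apart.

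Across the 20 comparisons 8 members were called once each, in 815 tests of members, or 0.982%, against 0.806% of 289360 tests over all genes. The calls were Ddx58 in liver, Ifi35 in heart, Ifi209 in lung, and Ifi203, Ifi204, Oas1a, Slfn2 and Trim30a in white fat. In 16 comparisons 0 members were called. Oas3, Mx1, Ifi44, Ifi209 and Ifi213 in liver and Zbp1, Oas3, Mx1 and Ifi209 in heart were below the filter on low values, a mean of 1 CPM, and were not tested. Their highest library values were 1.70 CPM in liver and 1.53 CPM in heart.

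**Figure D1:**
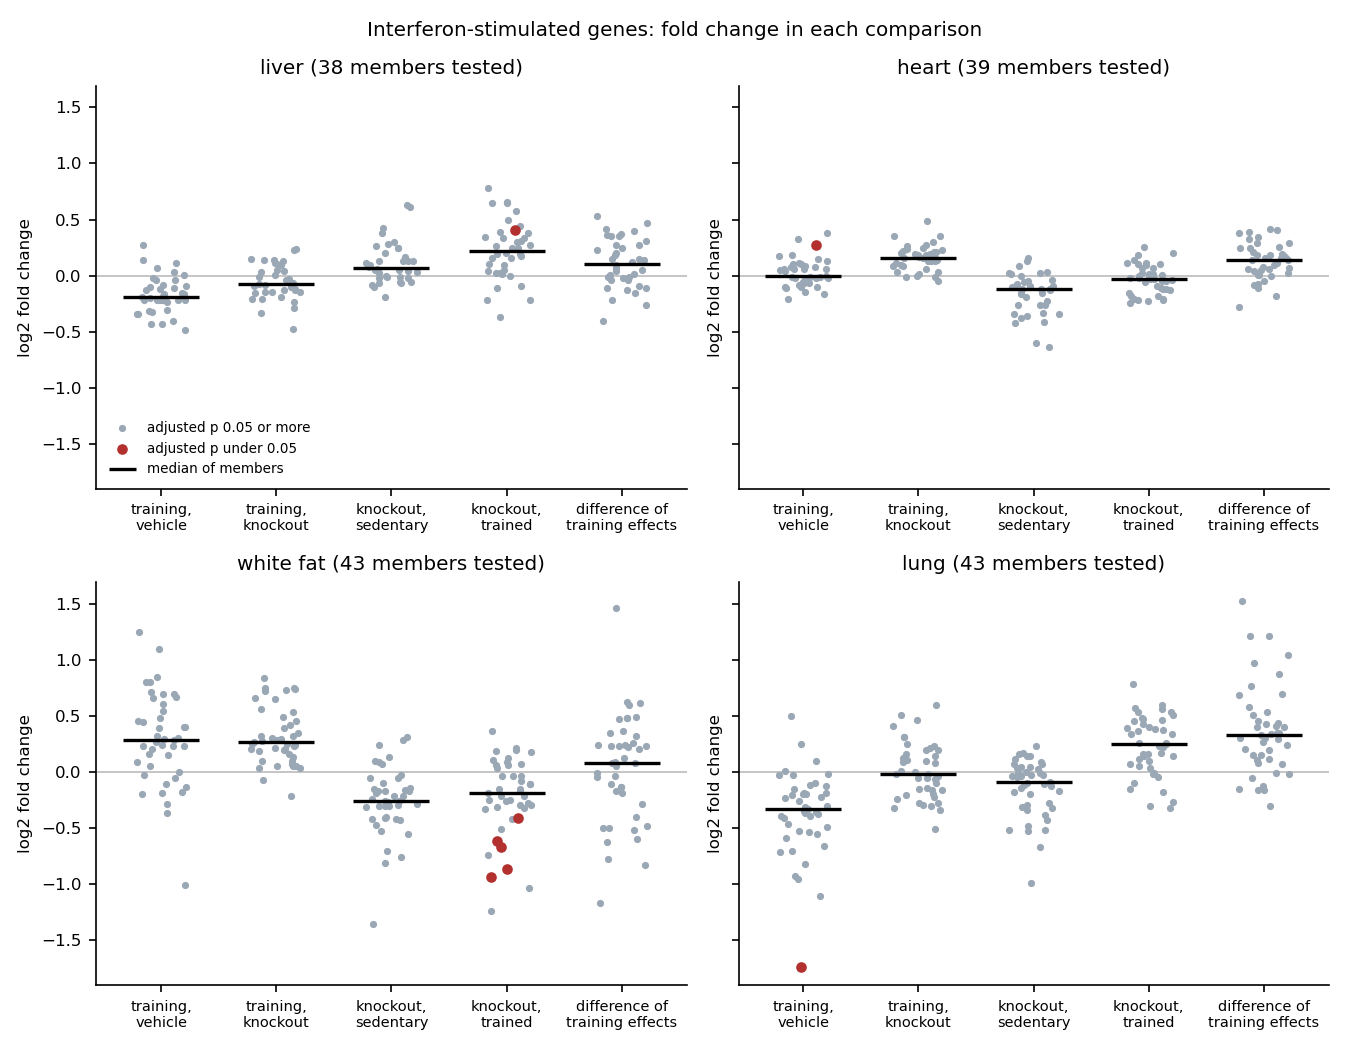
Log2 fold change (y axis) of each member tested in the 5 comparisons (x axis) of each tissue; grey points missed and red points passed an adjusted p of 0.05, and black bars are the medians of the members. In lung the median was -0.33 for training in vehicle mice, and in white fat 5 red points lie below 0 for the knockout in trained mice.

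Per kilobase of transcript, Bst2, which encodes tetherin and holds budding virions on the cell surface, was the most abundant member in each of the 4 tissues. Its mean level was 189 CPM per kilobase in liver, 83.3 in lung, 52.9 in white fat and 15 in heart. Oas3, which makes the oligoadenylates that activate RNase L, was the least abundant member in each tissue, at 0.0464 to 0.571 CPM per kilobase. The median member stood at 2.41 CPM per kilobase in liver, 2.72 in heart, 7.61 in white fat and 11.4 in lung. Psmb8, a catalytic subunit of the immunoproteasome, was second in each tissue, at 26.1 CPM per kilobase in liver, 9.87 in heart, 46.5 in white fat and 54.4 in lung. The tables of the tissues were made separately, so levels were not tested between tissues, and the transcript lengths come from the white fat and lung tables.

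In white fat 5 members fell in trained knockout mice compared with trained vehicle mice. They were Ifi203 and Ifi204 of the IFI200 family, which includes nuclear DNA sensors, Slfn2, a Schlafen gene that keeps mouse T cells quiescent, Oas1a, an oligoadenylate synthetase, and Trim30a, a TRIM protein that restrains NF-kB signalling. Their log2 fold changes lay between -0.93 for Slfn2 and -0.41 for Trim30a. The called share was 11.6% of 43 members, against 4.43% of 15448 genes.

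Ifi204 stood at 75.4, 100.4 and 77.8 CPM in trained vehicle mice and at 65.1, 49 and 45.3 CPM in trained knockout mice. In sedentary mice it stood at 51.5, 52.4 and 52.3 CPM with vehicle and 46.3, 47.6 and 44.8 CPM with the knockout. The 3 trained vehicle libraries were above the other 9, and the fold change for the knockout in trained mice was -0.67 (SE 0.14, adjusted p = 0.0385) by edgeR. Slfn2 was also highest in trained vehicle fat, at 66.6, 55.9 and 54.9 CPM in trained vehicle and 38.7, 32.3 and 22.3 CPM in trained knockout mice. It stood at 31.2, 33.8 and 36.5 CPM in sedentary vehicle and 35.9, 33.1 and 21.8 CPM in sedentary knockout mice. Its trained vehicle libraries did not overlap any other group, and the knockout effect in trained mice was -0.93 (SE 0.21, adjusted p = 0.0405) by edgeR.

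Ifi203 measured 66.1, 64.4 and 61 CPM in trained vehicle fat against 50.6, 35.4 and 39.3 CPM in trained knockout fat, a log2 fold change of -0.61 (SE 0.14, adjusted p = 0.0424) by edgeR. With the replicate number as a block the adjusted p of Ifi203 was 0.0577, and the other four calls held. Oas1a measured 12, 14.4 and 9.16 CPM against 6.80, 7.35 and 5.51 CPM, a log2 fold change of -0.86 (SE 0.20, adjusted p = 0.0432). Trim30a measured 37, 37.5 and 34.7 CPM against 28.4, 29.4 and 24.5 CPM, a log2 fold change of -0.41 (SE 0.10, adjusted p = 0.0461). The groups of these 3 genes, which were picked by their calls, did not overlap. How many of all genes lacked overlap was not computed. Ifi209, a further IFI200 member, had a larger difference, -1.03 (SE 0.26) on the log2 scale, but missed the threshold with an adjusted p of 0.0513. Its libraries stood at 18.9, 10.3 and 12.6 CPM in trained vehicle and 7.41, 7.09 and 5.97 CPM in trained knockout mice, without overlap. At an unadjusted p under 0.05, 8 members were lower and 0 higher, 18.6% against 25.4% of all genes, and the median member was at -0.19. The genes of the IFI200 family and of the OAS and GTPase families resemble each other, so the split of reads among them is uncertain.

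**Figure D2:**
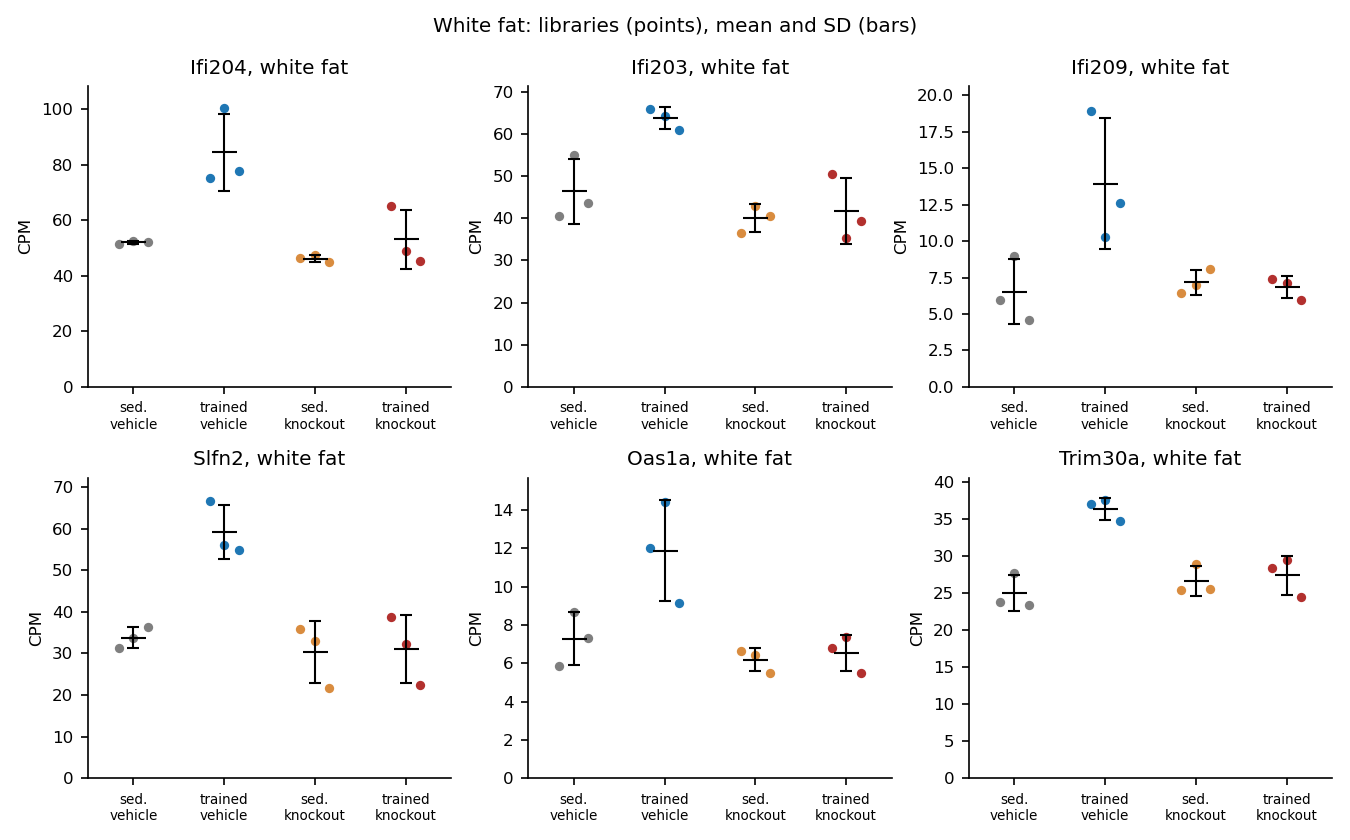
CPM (y axis) of 6 members in the 12 white fat libraries by group (x axis); points are libraries, bars the mean and SD of 3. For each gene the 3 trained vehicle libraries are the highest.

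The white fat groups also differed in transcripts of macrophages and B cells. The summed level of 10 macrophage markers, all listed in the table, was 2338, 2582 and 2931 CPM in trained vehicle fat and 1066, 1491 and 1708 CPM in trained knockout fat. It was 1383 to 1655 CPM in sedentary vehicle and 1375 to 1654 CPM in sedentary knockout fat. Between the trained groups 5 of the 10 macrophage markers were called lower and 10 had a negative sign, with a median of -0.81. The sum of 6 B cell markers was 18.2, 63 and 148 CPM in trained vehicle fat and 15.4 to 18 CPM in trained knockout fat, and 3 of the 6 were called lower. By DESeq2, 7 of 10 macrophage, 6 of 6 B cell and 1 of 6 neutrophil markers were called lower in trained knockout fat. Of the other immune markers 0 of 7 for T cells and 0 of 5 for natural killer cells were called. Of the monocyte markers 1 of 4 was called higher. The part of any of these cells in the members' differences was not tested. By edgeR 0 members were called without the 2 libraries that carried hepatocyte transcripts or with only the trained groups in the fit, while DESeq2 called 6 members and 12.6% of all genes. Leaving out trained knockout replicate 1 kept the same 5 calls, and leaving out any other library of the trained groups left 0.

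Training in vehicle mice and the knockout in trained mice share the trained vehicle libraries, so the values are given side by side. For training in vehicle mice the log2 fold changes were 0.70 (SE 0.14) for Ifi204, 0.46 (SE 0.14) for Ifi203, 1.09 (SE 0.26) for Ifi209, 0.81 (SE 0.21) for Slfn2, 0.70 (SE 0.20) for Oas1a and 0.54 (SE 0.10) for Trim30a. By edgeR 0 members were called for training in vehicle mice, against 0% of all genes, and the smallest adjusted p, shared by Trim30a and Ifi204, was 0.108. With p under 0.05 before adjustment, 8 members were higher and 0 lower, 18.6% against 18% of all genes. DESeq2 called 5 members, Trim30a, Ifi204 and Ifi209 among them, and 5.45% of all genes with an adjusted p. It also called 8 of 10 macrophage and 5 of 6 B cell markers higher. Of the T cell markers it called 0 of 7, and of the monocyte markers 0 of 4. Of 5 plasmacytoid dendritic cell markers, 2 of which had an adjusted p, it called 1 higher, and of 5 white adipocyte markers it called 1 lower. The part of any of these cells in the members' values was not tested. The median member had a log2 fold change of 0.29, against 0.03 over all genes.

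For training in knockout mice edgeR called 0 members, against 0% of all genes, and 2 were higher at an unadjusted p under 0.05, 4.65% against 16.3%. These were Irf7, the transcription factor that amplifies interferon production, and Ifit3. Irf7 stood at 13.3, 15.4 and 19.8 CPM in sedentary and 22.9, 30.7 and 33.1 CPM in trained knockout fat, without overlap, a log2 fold change of 0.84 (SE 0.26, adjusted p = 0.177) by edgeR. DESeq2 called 1 member, Irf7, with an adjusted p of 0.0458, and 3.98% of all genes. Ifit3 stood at 28.3, 29.7 and 31.1 CPM and 34.8, 44.2 and 52.6 CPM, without overlap, a log2 fold change of 0.57 (SE 0.23, adjusted p = 0.261) by edgeR. Oasl1, which holds back the translation of Irf7 in mice, followed, at 0.75 (SE 0.40, adjusted p = 0.372). Of 43 members 41 had a positive sign, against 49.2% of all genes, and their median was 0.27.

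For the knockout in sedentary mice edgeR called 0 members, against 0.557% of all genes. At an unadjusted p under 0.05 the number was 0, against 17.9% of all genes, and DESeq2 called 0 members and 5.84% of all genes. The median member was at -0.25, and this turned to 0.13 without sedentary vehicle replicate 2. In that library Igtp stood at 135 CPM, against 16.3 and 26.5 CPM in the other two of its group. Irgm2 stood at 155 CPM, against 33.2 and 54.5 CPM, and Gbp2 at 187 CPM, against 61.4 and 80.7 CPM. These are GTPases that act on the vacuoles of intracellular pathogens. In the same library Irf1, an interferon gamma-induced transcription factor, stood at 123 CPM, against 47.4 and 59.8 CPM. Ifi204 was level in the group, at 51.5, 52.4 and 52.3 CPM. The 3 smallest p-values belonged to Irgm1 at -0.81 (SE 0.37, adjusted p = 0.281), Igtp at -1.35 (SE 0.63, adjusted p = 0.291) and Irf7 at -0.56 (SE 0.26, adjusted p = 0.3).

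For the difference between the training effects edgeR called 0 members, against 0% of all genes, and 5 were negative at an unadjusted p under 0.05, 11.6% against 18.4%. DESeq2 called 1, Trim30a, with an adjusted p of 0.0469, and 5.04% of all genes. The 3 smallest p-values belonged to Trim30a at -0.50 (SE 0.14, adjusted p = 0.135), Ifi209 at -1.17 (SE 0.37, adjusted p = 0.159) and Slfn2 at -0.77 (SE 0.29, adjusted p = 0.208) by edgeR. The members' median lay at 0.08 and ran from -0.29 to 0.28 over 17 other settings, with the opposite sign in 5. These were the fits without the libraries carrying hepatocyte transcripts, without sedentary vehicle replicate 2, without sedentary knockout replicate 1, without trained vehicle replicate 3 and without trained knockout replicate 2. Other members varied within the sedentary vehicle group alone: Isg15 from 2.09 to 8.20 CPM, Oasl2 from 18.2 to 41.1 CPM, Ifit1 from 6.21 to 13 CPM, Stat2 from 27.6 to 61.9 CPM and Psmb8 from 40.01 to 86 CPM. In trained vehicle mice these genes ran from 5.06 to 8.55, 32.6 to 56.8, 9.10 to 27.3, 49.9 to 50.6 and 57.6 to 73.3 CPM, in that order. All 5 ranges overlapped.

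In lung 1 member fell with training in vehicle mice, Ifi209. A negative sign was held by 39 of the 43 members, while 48.8% of all genes had a positive sign. The median member was at -0.33 on the log2 scale, against -0.01 over all 16151 genes tested. Ifi209 stood at 23.5, 28.7 and 35.8 CPM in sedentary vehicle lungs and at 8.37, 10.1 and 7.92 CPM in trained vehicle lungs. It stood at 11.7, 18.4 and 14.4 CPM in sedentary knockout and 14.8, 13.4 and 10.4 CPM in trained knockout lungs. The sedentary vehicle libraries were above the other 9, and the fold change for training was -1.73 (SE 0.20, adjusted p = 0.00867) by edgeR. The called share was 2.33% against 0.204% of all genes, and 4 members and 2.48% of all genes were called by DESeq2. The call was lost without trained vehicle replicate 1 or 3, with adjusted p-values up to 0.121, and held without any of the other 4 libraries.

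With p under 0.05 before adjustment training in vehicle lungs had 9 lower members and 1 higher, 23.3% against 12.8% of all genes. Ifi203 stood at 62.6, 60.7 and 67.8 CPM in sedentary and 37.6, 42.9 and 36.2 CPM in trained vehicle lungs, a log2 fold change of -0.71 (SE 0.14, adjusted p = 0.0604). Slfn2 stood at 40.4, 60.2 and 49.2 CPM and 34.3, 30.6 and 27.4 CPM, a log2 fold change of -0.70 (SE 0.15, adjusted p = 0.0802). Neither gene's groups overlapped, and neither passed the adjusted threshold. Zbp1, a sensor of Z-form nucleic acid, stood at 8.08, 9.27 and 9.62 CPM and 4.03, 5.31 and 3.17 CPM, with -1.10 (SE 0.29, adjusted p = 0.13) by edgeR. The 1 higher member was Rsad2, which encodes viperin, at 9.17, 7.56 and 9.62 CPM in sedentary and 11.7, 13.3 and 12.1 CPM in trained vehicle lungs, with 0.50 (SE 0.20, adjusted p = 0.314).

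**Figure D3:**
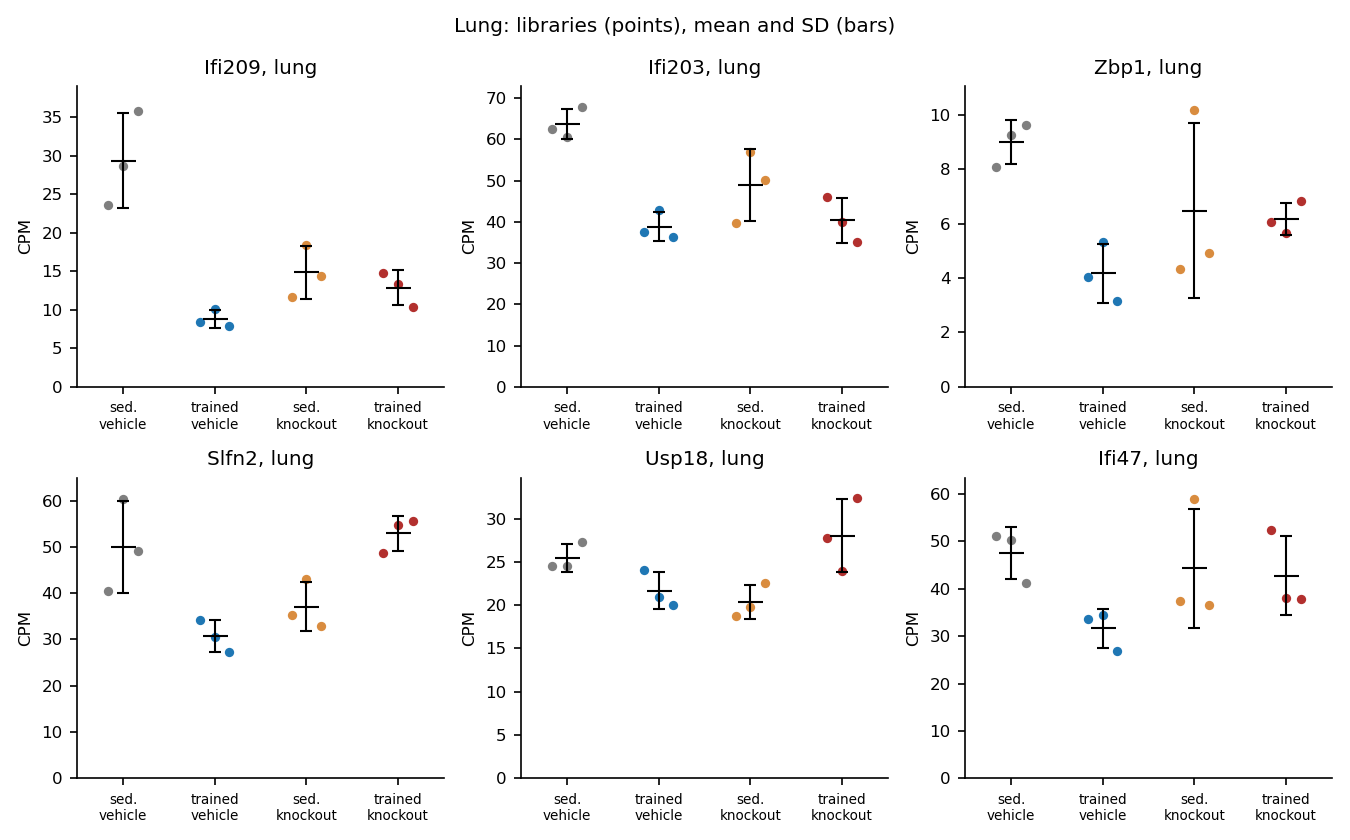
CPM (y axis) of 6 members in the 12 lung libraries by group (x axis); points are libraries, bars the mean and SD of 3. Ifi209 is highest in the 3 sedentary vehicle libraries, from 23.5 to 35.8 CPM.

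Sums of lymphocyte markers, all listed in the table, are given beside these values. The sum of 6 B cell markers was 87.1, 198 and 254 CPM in sedentary vehicle lungs and 29.8, 35.7 and 73.1 CPM in trained vehicle lungs. It was 64.5 to 95.4 CPM in sedentary knockout and 62.2 to 111 CPM in trained knockout lungs. The sum of 7 T cell markers was 35.9, 72.5 and 79.8 CPM in sedentary vehicle and 25.3, 36 and 37.6 CPM in trained vehicle lungs, with overlap. The sum of 10 macrophage markers was 261 to 343 CPM and 264 to 314 CPM in the same groups. For training in vehicle lungs 6 of 6 B cell markers had a negative sign, with a median of -1.96, as had 7 of 7 T cell markers, with a median of -0.91. By edgeR 0 of the 6 and 0 of the 7 were called, 6 and 7 were lower at an unadjusted p under 0.05, and DESeq2 called 5 and 2 lower. DESeq2 also called 1 of 4 monocyte markers lower. The part of any of these cells in the members' differences was not tested.

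For training in knockout lungs edgeR called 0 members, against 0% of all genes, and DESeq2 called 0 members and 1.03% of all genes. At an unadjusted p under 0.05, 3 were higher and 2 lower, 11.6% against 16.6%. Usp18, the protease that takes ISG15 off its targets and dampens the type I receptor, stood at 18.7, 19.8 and 22.5 CPM in sedentary and 27.8, 23.9 and 32.4 CPM in trained knockout lungs, with 0.46 (SE 0.13, adjusted p = 0.24) by edgeR. Slfn2 stood at 35.2, 43 and 33 CPM and 48.6, 54.6 and 55.5 CPM, with 0.51 (SE 0.15, adjusted p = 0.24). Ddx58, the RNA sensor RIG-I, stood at 60.5, 65.5 and 54.9 CPM and 50.03, 49.2 and 47.5 CPM, with -0.30 (SE 0.10, adjusted p = 0.24). These 3 genes had the smallest p-values of the comparison, and their groups did not overlap. The share of all genes without overlap was not computed. Over the members the median was -0.02. It ran from -0.17 to 0.24 over 11 other settings and was above 0 in 3, with the replicate block and without replicate 2 of either knockout group.

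The difference between the training effects was positive for 35 of 43 members, against 55.3% of all genes. The members' median was 0.33, against 0.05 over all genes. By edgeR 0 members were called, against 0% of all genes, and 6 were positive at an unadjusted p under 0.05, 14% against 15.2%. Slfn2 had a difference of 1.21 (SE 0.21, adjusted p = 0.207), Ifi209 of 1.53 (SE 0.28, adjusted p = 0.207) and Usp18 of 0.69 (SE 0.18, adjusted p = 0.213). DESeq2 called these 3 members, with adjusted p-values of 0.00104, 0.00207 and 0.0489, and 2.03% of all genes.

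For the knockout in sedentary lungs edgeR called 0 members, against 0% of all genes, and 6 were lower at an unadjusted p under 0.05, 14% against 13.6%. Ifi209 was at -0.99 (SE 0.20, adjusted p = 0.175) by edgeR, and DESeq2 called it as the 1 member, with an adjusted p of 0.00259, and 1.92% of all genes. Slfn2 was at -0.43 (SE 0.15, adjusted p = 0.264) and Ifi203 at -0.38 (SE 0.14, adjusted p = 0.271). The median member was at -0.09, and it was above 0 without sedentary knockout replicate 1 or without replicate 3. Sedentary knockout replicate 2 was the highest of its group for the GTPases: Igtp stood at 30.6, 79.6 and 34.2 CPM, Irgm2 at 62.3, 138 and 57.7 CPM and Gbp7 at 57, 119 and 59.3 CPM in the 3 libraries.

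In trained lungs edgeR called 0 members for the knockout, against 0% of all genes, and DESeq2 called 1, Slfn2, with an adjusted p of 0.00406, and 0.827% of all genes. With p under 0.05 before adjustment, 8 were higher and 2 lower, 23.3% against 16.2%. Slfn2 stood at 34.3, 30.6 and 27.4 CPM in trained vehicle and 48.6, 54.6 and 55.5 CPM in trained knockout lungs, with 0.78 (SE 0.15, adjusted p = 0.282) by edgeR. Usp18 was at 0.37 (SE 0.13, adjusted p = 0.282). Psmb8 stood at 63.9, 60.9 and 47 CPM and 74.4, 76.7 and 93 CPM, without overlap, with 0.51 (SE 0.18, adjusted p = 0.282). The members' median lay at 0.25. Neutrophil markers, 6 of 6 listed, summed to 53.5 to 102 CPM in trained vehicle and 82 to 358 CPM in trained knockout lungs, with overlap. The T cell markers summed to 25.3 to 37.6 CPM against 42.6 to 48.8 CPM, without overlap, 7 of 7 were positive and their median was 0.53. The B cell markers summed to 29.8 to 73.1 CPM against 62.2 to 111 CPM, with overlap, 6 of 6 were positive and their median was 1.09. The part of these cells was not tested.

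Ifit3 stood at 119, 88.1 and 90.1 CPM in sedentary vehicle and 118, 84.1 and 90.6 CPM in trained vehicle lungs. Across the 4 comparisons of groups in lung, Oasl2 lay between -0.04 and 0.09 on the log2 scale, Stat2 between -0.15 and 0.15, Isg15 between 0.10 and 0.25, Irf7 between -0.19 and 0.26 and Bst2 between 0.10 and 0.34, and none of these 5 was called. Gbp2 stood at 109.8, 71.8 and 57.8 CPM in sedentary vehicle and 63.8, 62.6 and 56.1 CPM in trained vehicle lungs, with -0.39 (SE 0.25, adjusted p = 0.525) by edgeR. Ifit1 had -0.53 (SE 0.19, adjusted p = 0.285) for training in vehicle mice and -0.52 (SE 0.19, adjusted p = 0.281) for the knockout in sedentary mice, both by edgeR.

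In liver 1 member rose in trained knockout mice compared with trained vehicle mice, the sensor Ddx58. It stood at 11.1, 13.3, 14.4, 12.4 and 14.2 CPM in trained vehicle and 14.9, 20.5, 17.6, 16.8 and 18.6 CPM in trained knockout livers. The 2 groups did not overlap, and the log2 fold change was 0.41 (SE 0.10, adjusted p = 0.0359) by limma. The trained vehicle group had the lowest mean and overlapped both sedentary groups: sedentary vehicle livers stood at 18.1, 17.4, 16.4, 17.2 and 13.8 CPM and sedentary knockout livers at 14, 17.7, 17, 16.9 and 16.8 CPM. The called share was 2.63% of 38 members, against 2.63% of 12817 genes, so it did not stand above the background. Of 10 fits that left out 1 library each, the call held only without trained vehicle replicate 2 or 5, and the highest adjusted p was 0.0929. By limma 0 members passed with no filter on low values or without trained knockout replicate 2, which carried muscle transcripts.

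At an unadjusted p under 0.05 the knockout in trained livers had 9 higher members and 1 lower, 26.3% against 21.9% of all genes. Over the members the median was 0.22, and 33 of 38 were positive, against 48.6% of all genes. Gbp2 stood at 2.41, 2.52, 1.43, 3.01 and 5.10 CPM and 4.51, 4.73, 4.47, 7.28 and 6.42 CPM, with 0.78 (SE 0.23, adjusted p = 0.0643), and its ranges overlapped. Ifi47, an immunity-related GTPase, stood at 6.34, 10.03, 5.62, 8.40 and 8.18 CPM and 12.4, 11.1, 10.7, 16.5 and 12.4 CPM without overlap, with 0.65 (SE 0.20, adjusted p = 0.0762). Bst2 went the other way, at 143, 140.4, 157, 167 and 151 CPM and 135, 115, 126, 139 and 138 CPM without overlap, with -0.22 (SE 0.09, adjusted p = 0.166). The sum of 10 macrophage markers was 88.2 to 152 CPM in trained vehicle and 141 to 351 CPM in trained knockout livers, 10 of 10 were positive and 1 was called higher. Their part in the members' differences was not tested.

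For training in vehicle livers limma called 0 members, against 0% of all genes, and 4 were lower at an unadjusted p under 0.05, 10.5% against 6.9%. Of 38 members 32 were negative, with a median of -0.19, while 49.9% of all genes were positive. Isg15 stood at 6.69, 6.66, 8.14, 7.26 and 6.23 CPM in sedentary and 4.56, 4.11, 4.86, 5.67 and 5.59 CPM in trained vehicle livers. The groups did not overlap, but the difference of -0.43 (SE 0.12, adjusted p = 0.327) missed the threshold. Ddx58 was at -0.32 (SE 0.10, adjusted p = 0.422) and Slfn2 at -0.48 (SE 0.22, adjusted p = 0.699).

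For training in knockout livers limma called 0 members, against 0.0234% of all genes, and 2 were lower at an unadjusted p under 0.05, 5.26% against 11.8%. These were Bst2 at -0.28 (SE 0.09, adjusted p = 0.281) and Isg15 at -0.33 (SE 0.12, adjusted p = 0.295). Bst2 stood at 146, 173, 174, 155 and 149 CPM in sedentary knockout livers, above all 5 trained knockout livers. Igtp followed at -0.48 (SE 0.29, adjusted p = 0.522). The median member was at -0.07, and just above 0 without sedentary knockout replicate 5. For the knockout in sedentary livers limma called 0 members, against 0% of all genes, and 2 were higher at an unadjusted p under 0.05, 5.26% against 4.81%. Irgm2 stood at 30.4, 28.8, 35.6, 33.9 and 21.9 CPM in sedentary vehicle and 42.1, 29.7, 32.4, 65.2 and 82.4 CPM in sedentary knockout livers, with 0.63 (SE 0.22, adjusted p = 0.995). Igtp stood at 25.8, 26.2, 35.9, 24.5 and 19.9 CPM and 29.2, 20.5, 33.3, 67.3 and 76.7 CPM, with 0.61 (SE 0.29, adjusted p = 0.995). In both genes replicates 4 and 5 of the knockout were the highest. Oasl2 followed, at 0.38 (SE 0.20, adjusted p = 0.995), and the median member was at 0.07.

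For the difference between the training effects in liver limma called 0 members, against 0.0078% of all genes, and 1 was positive at an unadjusted p under 0.05, 2.63% against 10.2%. It was Ddx58 at 0.42 (SE 0.14, adjusted p = 0.319), followed by the RNA sensor Ifih1 at 0.40 (SE 0.22, adjusted p = 0.539) and Ifi204 at 0.47 (SE 0.27, adjusted p = 0.562). The members' median lay at 0.11. Across the 4 comparisons of groups in liver, Irf7 lay between -0.21 and 0.30, Stat2 between -0.37 and 0.28, Ifit1 between -0.22 and 0.33, Ifit3 between -0.34 and 0.39 and Psmb8 between -0.16 and 0.10, and none of these 5 was called.

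**Figure D4:**
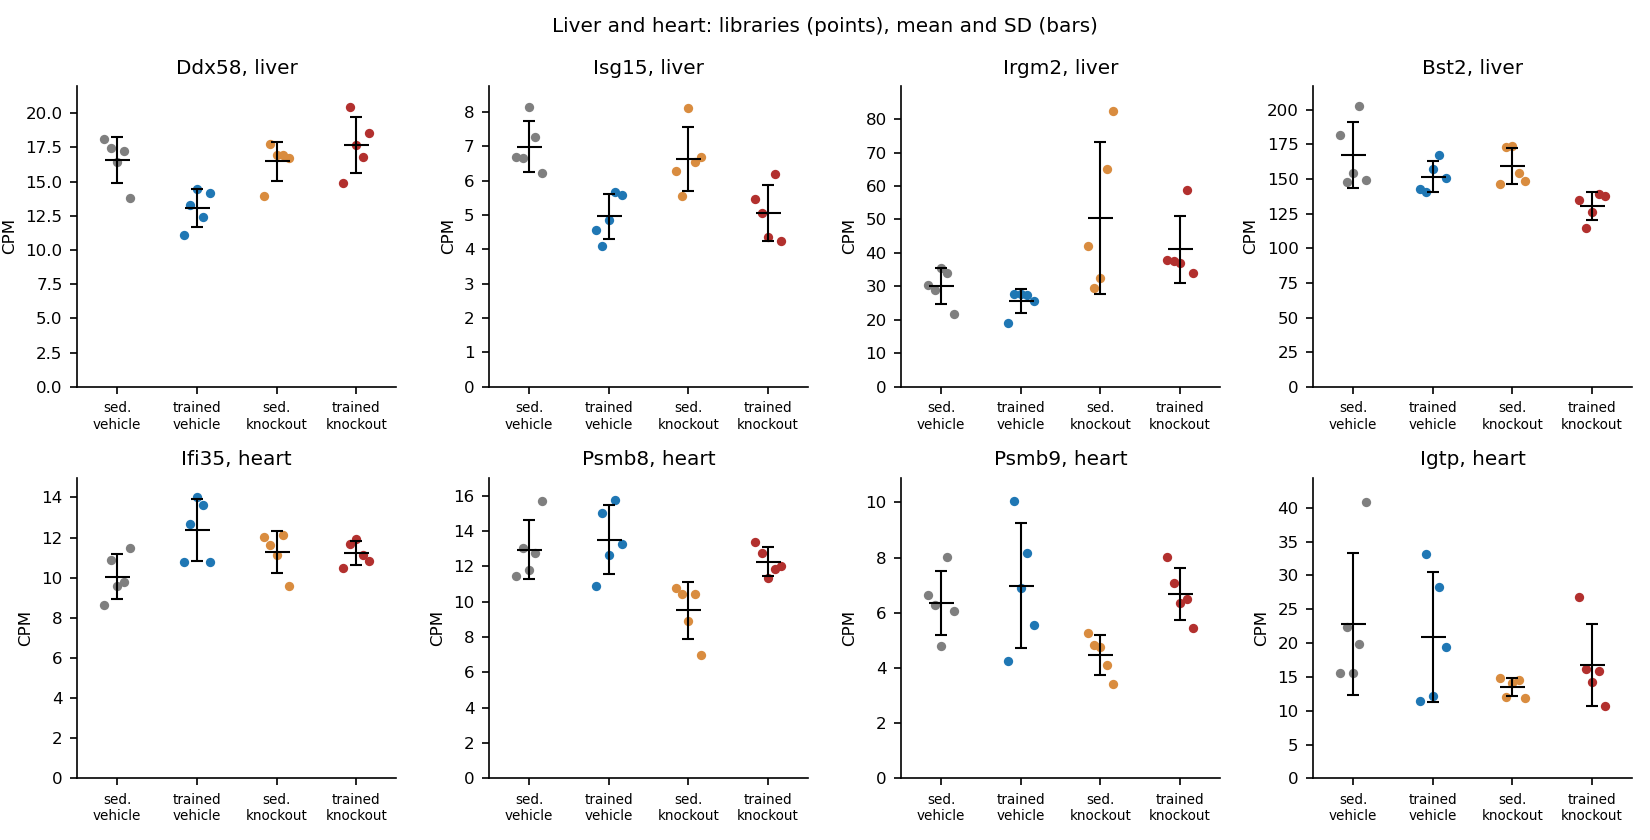
CPM (y axis) of 4 members in the 20 liver libraries and 4 in the 20 heart libraries by group (x axis); points are libraries, bars the mean and SD of 5. Trained vehicle livers have the lowest mean for Ddx58, and sedentary knockout hearts are lowest for Psmb8.

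In heart 1 member rose with training in vehicle mice, Ifi35, an interferon-induced leucine zipper protein. It stood at 8.62, 10.9, 9.56, 9.76 and 11.5 CPM in sedentary and 10.8, 12.7, 14, 13.6 and 10.8 CPM in trained vehicle hearts, and the ranges overlapped. The log2 fold change was 0.27 (SE 0.09, adjusted p = 0.0472) by limma. The called share was 2.56% of 39 members, against 8.27% of 13456 genes, below the background. Of 10 fits that left out 1 library each, the call held in 4, was lost without sedentary vehicle replicate 1, 3 or 4 or trained vehicle replicate 2, 3 or 4, and had adjusted p-values up to 0.118. By limma the adjusted p of Ifi35 was 0.0793 with no filter on low values, 0.106 with the library sums made equal and 0.0968 with only the 2 groups compared in the fit.

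With p under 0.05 before adjustment training in vehicle hearts had 3 higher members and 0 lower, 7.69% against 24.5% of all genes. The other two were Slfn2 and Bst2. Slfn2 stood at 5.16, 5.53, 4.21, 5.88 and 6.67 CPM in sedentary and 7.77, 6.78, 6.74, 7.84 and 7.79 CPM in trained vehicle hearts, without overlap, with 0.38 (SE 0.12, adjusted p = 0.054). Bst2 was at 0.33 (SE 0.11, adjusted p = 0.0742). Over the members the median was -0.01, with the opposite sign in 8 of 16 other settings and a highest value of 0.10, and 19 members were positive and 20 negative.

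In sedentary hearts limma called 0 members for the knockout, against 0% of all genes, while 12 were lower at an unadjusted p under 0.05 and 0 higher. That is 30.8% of the members, against 6.54% of all genes. The median member was at -0.12, and 32 of 39 were negative, while 50% of all genes were positive. Psmb8 stood at 11.5, 13, 11.8, 12.8 and 15.7 CPM in sedentary vehicle and 10.8, 10.5, 8.91, 10.5 and 6.96 CPM in sedentary knockout hearts, without overlap, with -0.41 (SE 0.10, adjusted p = 0.309). Oasl2 stood at 6.97, 5.76, 5.78, 6.43 and 7.51 CPM and 5.32, 4.79, 5.73, 4.35 and 4.57 CPM, also without overlap, with -0.33 (SE 0.11, adjusted p = 0.529). Psmb9, the second immunoproteasome subunit of the list, stood at 6.63, 6.28, 4.81, 8 and 6.05 CPM and 5.26, 4.85, 4.74, 4.10 and 3.43 CPM with overlap, and had -0.42 (SE 0.15, adjusted p = 0.57). Igtp stood at 15.7, 22.4, 15.6, 19.9 and 40.9 CPM and 14.8, 12.1, 14.1, 14.6 and 12 CPM, without overlap, with -0.63 (SE 0.25, adjusted p = 0.647). Sedentary knockout replicate 5 was the lowest library of its group for Psmb8 and Psmb9, the 4 guanylate-binding proteins and the 3 IFIT proteins. Monocyte markers, 4 of 4 listed, summed to 4.92 to 6.37 CPM in sedentary vehicle and 3.14 to 4.53 CPM in sedentary knockout hearts, and macrophage markers to 163 to 169.6 CPM and 151 to 170.1 CPM. Their part was not tested.

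For training in knockout hearts limma called 0 members, against 0.0223% of all genes, and 5 were higher at an unadjusted p under 0.05, 12.8% against 11.8%. Trained knockout hearts stood at 13.4, 12.8, 11.3, 11.8 and 12.1 CPM for Psmb8 and 8.01, 7.08, 6.35, 6.51 and 5.45 CPM for Psmb9, above all 5 sedentary knockout hearts for both genes. The fold changes were 0.35 (SE 0.10, adjusted p = 0.184) for Psmb8, 0.49 (SE 0.15, adjusted p = 0.197) for Psmb9 and 0.30 (SE 0.11, adjusted p = 0.273) for Oasl2. These values share the sedentary knockout hearts with those for the knockout in sedentary mice. The members' median lay at 0.16, and 35 of 39 were positive, against 49.1% of all genes.

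For the knockout in trained hearts limma called 0 members, against 0.52% of all genes, and 1 was higher at an unadjusted p under 0.05, 2.56% against 15.1%. It was Ifi204 at 0.25 (SE 0.11, adjusted p = 0.268), followed by Slfn2 at -0.22 (SE 0.12, adjusted p = 0.393) and Gbp2 at -0.22 (SE 0.12, adjusted p = 0.402). For the difference between the training effects limma called 0, against 0% of all genes, and 2 members had an unadjusted p under 0.05, 5.13% against 8.06%. They were Ifi35 at -0.28 (SE 0.12, adjusted p = 0.597) and Oasl2 at 0.32 (SE 0.16, adjusted p = 0.616), and Psmb8 followed at 0.29 (SE 0.15, adjusted p = 0.629). The median members stood at -0.03 and 0.14, and the first was above 0 without trained vehicle replicate 2 or 4, at up to 0.03. Irf7 lay between -0.12 and 0.12 in the 4 comparisons of groups, Stat2 between -0.15 and 0.15, Isg15 between -0.09 and 0.22, Ifit1 between -0.12 and 0.17 and Ifit3 between -0.13 and 0.13, and none of these 5 was called.

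The gene groups did not vary alike among the libraries of a tissue. The mean log2(CPM + 1) of the 4 immunity-related GTPases ran from 4.37 to 6.61 in sedentary vehicle fat, while that of the 4 IFI200 genes ran from 3.64 to 4.19. In trained vehicle fat the IFI200 mean ran from 4.51 to 4.74, above every library of the other 3 groups. In lung the IFI200 mean was 4.41 to 4.71 in sedentary vehicle and 3.62 to 3.80 in trained vehicle mice, and the guanylate-binding mean was 5.26 to 6.10 and 4.94 to 5.24. In heart the class I mean was 2.68 to 3.12 in sedentary knockout mice and 3.14 to 3.64 in trained knockout mice. In liver the immunity-related GTPases were highest in sedentary knockout replicate 5 and lowest in trained vehicle replicate 1.

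**Figure D5:**
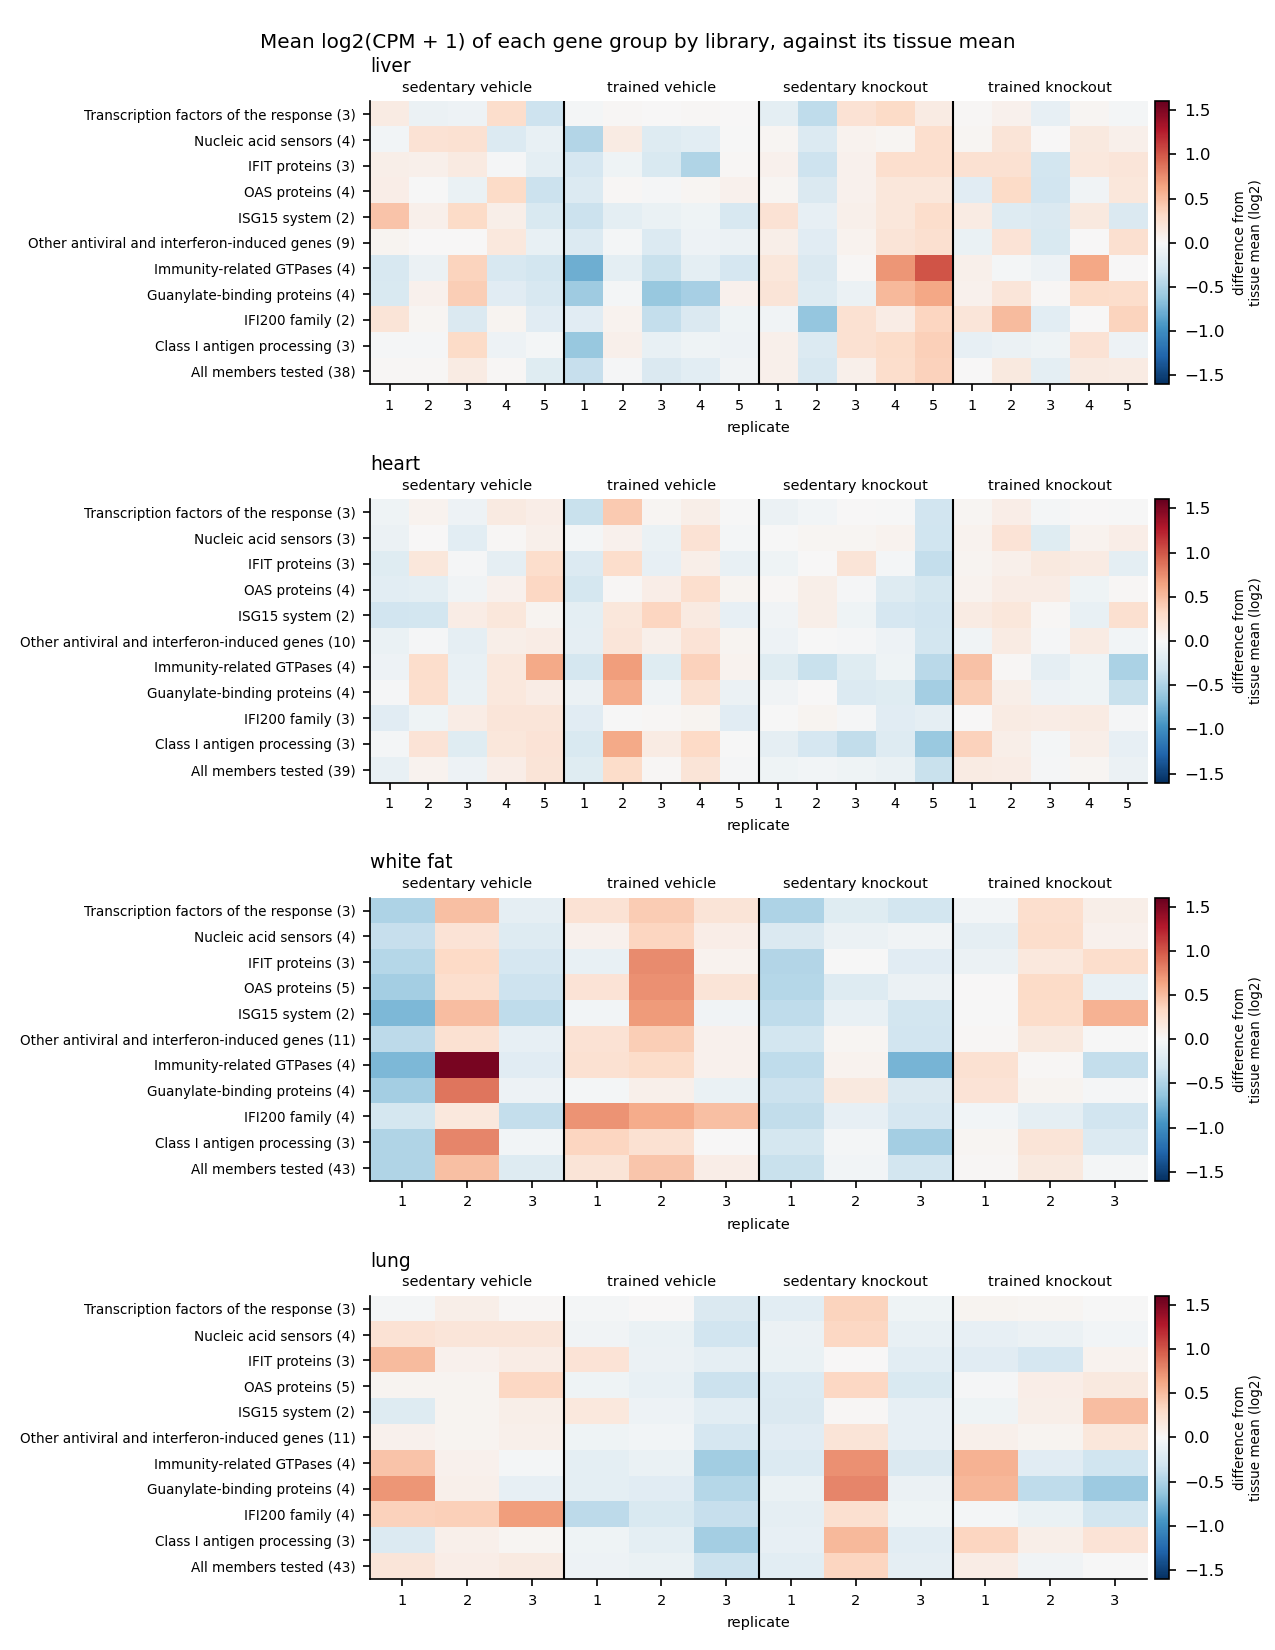
Mean log2(CPM + 1) of each gene group (rows, with the number of genes tested) in each library (columns, by group and replicate), as the difference from the tissue's mean over libraries; red is higher and blue lower, from -1.6 to 1.6. In white fat the immunity-related GTPases are darkest in sedentary vehicle replicate 2, and the IFI200 family is red in the 3 trained vehicle libraries.

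Genes that act before the members were read from further lists of the pathway. Of 9 interferon ligands 0 could be tested in any tissue. Ifng, the gene of interferon gamma, did not exceed 0.230 CPM in any liver library, 0.732 in white fat or 0.659 in lung, and no ligand was found in the heart table. Of 6 receptor genes 3 fell in trained knockout compared with trained vehicle fat: Il10rb at -0.73 (SE 0.16, adjusted p = 0.0385), Ifnar2, a chain of the type I receptor, at -0.32 (SE 0.07, adjusted p = 0.0432) and Ifngr2, a chain of the interferon gamma receptor, at -0.43 (SE 0.10, adjusted p = 0.0455) by edgeR, in a comparison that called 4.43% of all genes. In liver Ifngr2 rose in the same comparison, from 8.81, 12.8, 11.4, 11.1 and 10.1 CPM in trained vehicle to 14.4, 16.4, 14.1, 16.8 and 16.7 CPM in trained knockout mice, with 0.50 (SE 0.12, adjusted p = 0.0326) by limma. It was 1 of 5 receptor genes tested there, beside 2.63% of all liver genes.

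Of 12 sensors and adaptors that lead to interferon production 4 fell in trained knockout compared with trained vehicle fat, where 4.43% of all genes were called. Tlr7, the endosomal sensor of single-stranded RNA, stood at 37.2, 48.6 and 39.3 CPM in trained vehicle and 25.1, 14.2 and 11.7 CPM in trained knockout fat, with -1.30 (SE 0.31, adjusted p = 0.045) by edgeR. Unc93b1, which carries such receptors to endosomes, was at -0.65 (SE 0.14, adjusted p = 0.0385), the kinase Tbk1 at -0.34 (SE 0.08, adjusted p = 0.042) and the adaptor Ticam1 at -0.41 (SE 0.10, adjusted p = 0.0493). Of 30 further interferon-stimulated genes tested 1 fell there, Ifi207 of the IFI200 family, at -0.83 (SE 0.19, adjusted p = 0.0449), a share below that background. The macrophage and B cell sums given above for these groups hold for these genes too. In heart, training in vehicle mice raised Psmb10 by 0.30 (SE 0.07, adjusted p = 0.0156) and Psme1 by 0.17 (SE 0.04, adjusted p = 0.0218), both parts of the immunoproteasome pathway, and Ifitm2 by 0.21 (SE 0.06, adjusted p = 0.0225) on the log2 scale by limma. These were 2 of 6 further class I genes and 1 of 28 further interferon-stimulated genes tested, beside 8.27% of all heart genes called, so that the latter share was below the background.

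Irf1 passed the test in no comparison by limma or edgeR. For the knockout in sedentary fat it stood at 47.4, 123 and 59.8 CPM in vehicle and 51, 56.1 and 46.3 CPM in knockout mice, with -0.59 (SE 0.27, adjusted p = 0.29) by edgeR.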

How the data were processed

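Liver, heart, inguinal white fat and lung RNA was sequenced in 64 libraries. Per the submitters' processing notes, reads were aligned with STAR 2.7.8a and handled in Partek, and the builds named are mm10 and GRCm39. Neither is tied to a tissue there. The deposited liver and heart values are a signal per gene that the authors scaled, although they are named CPM: library sums ran from 14840700 to 17097800 in liver and from 16424900 to 18537100 in heart. The step between low values gave an estimated depth, and 81.0 to 83.8% of values were whole reads within 0.02 of a read. The deposited white fat and lung values are estimated counts per transcript, summed here per symbol and rounded to whole numbers.

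Genes were tested in 1 model per tissue over its 4 groups, after a filter on low values: a mean of at least 1 CPM in liver and heart, and edgeR's filterByExpr by group in white fat and lung. Limma 3.58.1 was run on log2(value + 1) for liver and heart, so fold changes of low genes are understated there. The quasi-likelihood test of edgeR 4.0.16 with TMM scaling was run for white fat and lung, and DESeq2 1.42.0 was the alternative, in R 4.3.3. P-values were adjusted by Benjamini-Hochberg over all genes tested. Libraries with the same values numbered 0 pairs. The labels list replicates as separate samples and say no more, so the p-values rest on spread that may be technical. A library was taken to carry another tissue where that tissue's summed markers reached 50 CPM and over 10 times the median library.

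The members and all lists were chosen with earlier results of these data known. Named in each comparison were the called members, or, where 0 were called, the 3 with the smallest p. Overlap between groups was read for members only, so no share over all genes stands beside it. Irf7, Stat2, Isg15, Ifit1, Ifit3, Oasl2, Bst2, Gbp2, Igtp and Psmb8 were always described, with Irf1 and Arntl, and a further gene of that rule is not reported here. Other genes were added after their values were seen. The tests were tried on simulated data. Promoter sequences are RefSeq's, on GRCm38.p6.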

Additional observations from a re-analysis of the deposited data

Results flagged for a closer look

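In groups of 5, a library was picked out where it lay far from the other 4, and 9 of 144 groups had one. Chance marks about 1 in 20 groups. In liver, Ddx58 stood at 13.98 CPM in sedentary knockout replicate 1, against 16.8 CPM in the nearest library. Ifit1 stood at 3.01 CPM in trained vehicle replicate 4, against 4.13 CPM. Ifit3 stood at 4.86 CPM in sedentary knockout replicate 2, against 8.82 CPM, and at 5.73 CPM in trained knockout replicate 3, against 8.52 CPM. Igtp stood at 13.5 CPM in trained vehicle replicate 1, against 24.4 CPM, and at 51.1 CPM in trained knockout replicate 4, against 27.7 CPM. Oasl2 stood at 1.80 CPM in sedentary knockout replicate 2, against 3.05 CPM. In heart, Gbp2 stood at 10.8 CPM in sedentary knockout replicate 5, against 14.4 CPM, and Igtp at 40.9 CPM in sedentary vehicle replicate 5, against 22.4 CPM.

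Among 936 pairs of tissues compared for a member under the same comparison, 14 had groups without overlap in both tissues, in opposite directions. The share of all genes with such a pattern was not computed, so the 14 are not a result about the members. These differences between tissues were not tested. For training in vehicle mice, white fat and lung had log2 fold changes of 0.46 and -0.71 for Ifi203, 0.70 and -0.82 for Ifi204, 1.09 and -1.73 for Ifi209, 0.81 and -0.70 for Slfn2, and 0.54 and -0.37 for Trim30a. Slfn2 was also at 0.38 in heart. For the knockout in trained mice, white fat and lung had -0.67 and 0.48 for Ifi204, -1.03 and 0.54 for Ifi209, -0.51 and 0.43 for Ifi47, and -0.93 and 0.78 for Slfn2. Under that comparison liver stood at 0.65 for Ifi47, opposite to white fat. Liver and lung had -0.22 and 0.34 for Bst2, and 0.41 and -0.17 for Ddx58. For training in knockout mice, heart and lung had 0.16 and -0.28 for Ifih1. The 2 comparisons in which white fat and lung were opposite share the trained vehicle libraries.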

How the results depend on the processing

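Of 303 counts of members called under an alternative, 258 stayed at 0 or within 1.5 times a main count above 0, and 45 moved. In 16 of the 20 comparisons the main count was 0, so the 258 say little about the comparisons with a call. In liver the 1 call for the knockout in trained mice became 0 with no filter, 3 with only the groups compared and 0 without the library carrying muscle transcripts. In heart the 1 call for training in vehicle mice, Ifi35, became 0 with no filter, 0 with equal library sums, an alternative chosen after seeing the data, and 2 without libraries carrying another tissue (Ifi35 and Bst2). With only the groups compared the 1 call was Slfn2 and not Ifi35. In white fat the 5 calls for the knockout in trained mice became 2 with no filter, 0 with the groups alone and 0 without the hepatocyte-carrying libraries. DESeq2 called 5 in white fat for training in vehicle mice (3 with the groups alone by edgeR), 1 for training in knockout mice and 1 for the difference between the training effects. In lung DESeq2 called 4 for training in vehicle mice, 1 for the knockout in sedentary mice, 1 for the knockout in trained mice and 3 for the difference. Leaving out 1 library each gave 0 to 3 calls for the knockout in trained livers, 0 to 2 for training in vehicle hearts, 0 to 5 for the knockout in trained fat, 0 to 1 for the difference in fat, 0 to 3 for training in vehicle lungs and 0 to 1 for the difference in lung. The other comparisons gave 0 throughout. Where a filter or fewer samples changed a count, the number of genes or libraries tested also changed; for the rest the cause was not tested. Igtp for the knockout in sedentary fat ranged from -1.79 to 0.12 without 1 library each. Of the named genes' fold changes, 772 kept their direction and side of the threshold, 61 lost a call and 13 gained one. The 772 include genes that were uncalled and stayed so, and only the 8 called members could lose a call. Without 1 library each, the call held in 2 of 10 fits for Ddx58, 4 of 10 for Ifi35 and 4 of 6 for Ifi209. It held in 1 of 6 for each of the white fat genes. Under the other settings it held in 4 of 6 for Ddx58, Ifi204 and Slfn2, 3 of 6 for Ifi35 and Oas1a, 2 of 6 for Ifi203 and Trim30a and 5 of 5 for Ifi209. Of 303 medians under an alternative 22, of 7 comparisons, had the opposite sign. A total of 297 moved by less than the spread between replicates, and 6 moved by more, without white fat sedentary vehicle replicate 2 or lung sedentary knockout replicate 2, and Igtp for the knockout in sedentary fat reversed to 0.12 without sedentary vehicle replicate 2.

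In no comparison did every pair of same-numbered replicates deviate together at a correlation above 0.1. The correlations ran from -0.38 to 0.36, and for the knockout in sedentary lungs from 0.09 to 0.31. The main fits had no replicate block, and whether a shared number marks a shared mouse or batch was not settled. With the replicate block 4 members were called for the knockout in trained fat (Oas1a, Trim30a, Slfn2 and Ifi204, not Ifi203), and 1 each for the knockout in trained liver, training in vehicle hearts and training in vehicle lungs. The edgeR test on estimated reads of liver and heart was not run, because their values did not resolve into whole reads for nearly all genes. Members with a mean under 1 CPM in liver and heart were below the filter set here, so the main fits did not test them.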
